A study of Mus musculus with 9 samples.

Results

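Major urinary proteins (MUPs) and the growth hormone axis were followed in the mRNA profiles of mouse liver across fibrosis and its spontaneous reversal. The set held the genes whose symbol starts with Mup and a number, together with Ghr, Prlr, Jak2, Stat5a, Stat5b, Socs2, Cish, Bcl6, Cux2, Igf1, Igfals, Elovl3, Hsd3b5, Selenbp2 and Moxd1. These were 37 of the 21873 genes in the table, 22 of them Mup genes. The genes were selected by name once their FPKM differences between the 3 groups of these libraries were known. Their calls of differential expression come from a fit over all genes. Because of the selection, their values, calls and counts are given as a description and not as a test of the set. Liver RNA came from male C57BL/6 mice that were 8 weeks old at the start, with 3 mice in each group. Control mice received normal saline intraperitoneally for 8 weeks. TAA-fibrotic mice received thioacetamide (TAA), a compound that injures hepatocytes, every 3 days for the same 8 weeks. Recovery mice received the same TAA course and were then left untreated for another 8 weeks. Recovery mice were therefore 8 weeks older than the others at collection, and age-matched control mice were not analysed here.

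MUPs are small lipocalins that hepatocytes of the adult male mouse secrete in very large amounts. They pass into the urine, where they carry and slowly release volatile pheromones. Growth hormone, released by the pituitary in pulses in males and more evenly in females, binds its receptor on hepatocytes, and the attached kinase JAK2 phosphorylates STAT5, which enters the nucleus. STAT5 drives Igf1, its own feedback inhibitors and the sex-biased liver genes, to which most Mup genes, Elovl3 and Hsd3b5 belong.

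The Mup genes lay side by side on chromosome 4 of mm10, between 59956804 and 62150863, a span of 2.19 Mb. Of the 20 Mup genes that passed the filter on low values (a mean FPKM of at least 0.1), 16 had a paralog whose transcript was at least 98% identical, with identities from 98.7% to 99.6%. For 14 of these 20 genes, under 30% of the 150-base windows of the transcript were found in no other gene, and for Mup22 the share was 0%. Mup3, Mup6 and Mup21 shared no such window with another gene. Some loci also overlapped on the annotation. Mup6 overlapped Mup4 and Mup7 on the opposite strand, Mup11 spanned Mup1 and Mup10, and Mup12 spanned Mup22. How reads that map to several genes were counted, and whether strand was used, is not given in the sources used here. Single Mup values are therefore uncertain in how reads were divided between near-identical genes, and summed levels are given beside them. If shared reads were dropped, they are missing from the sums as well, and more so for genes with few windows of their own. Sums and shares of Mup genes below carry this limit.

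The 250 bases before the annotated start were taken from RefSeq (GRCm38.p6), where 14 of the 22 Mup genes and 13 of the other 15 genes had an entry. Promoters are shown for 4 genes on which the contrasts between Mup genes turn. Mup19 was listed at or near 0 in every TAA-fibrotic mouse, Mup10 was the single Mup gene above all control mice after recovery, and Mup3 and Mup21 returned to the range of the control mice. Capitals mark TATATAA, which holds the letters of a TATA box.
Mup19, chr4:61782225-61782474, minus strand: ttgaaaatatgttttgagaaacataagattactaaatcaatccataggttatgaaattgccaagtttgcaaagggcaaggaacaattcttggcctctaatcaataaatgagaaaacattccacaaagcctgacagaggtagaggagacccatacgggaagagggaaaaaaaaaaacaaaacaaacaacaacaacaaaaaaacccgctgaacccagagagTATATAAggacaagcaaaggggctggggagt
Mup10, chr4:60582156-60582405, minus strand: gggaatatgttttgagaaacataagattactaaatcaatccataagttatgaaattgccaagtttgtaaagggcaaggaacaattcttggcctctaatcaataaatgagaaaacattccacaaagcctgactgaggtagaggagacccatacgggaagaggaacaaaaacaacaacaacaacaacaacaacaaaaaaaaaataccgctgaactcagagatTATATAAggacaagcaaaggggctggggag
Mup3, chr4:62087318-62087567, minus strand: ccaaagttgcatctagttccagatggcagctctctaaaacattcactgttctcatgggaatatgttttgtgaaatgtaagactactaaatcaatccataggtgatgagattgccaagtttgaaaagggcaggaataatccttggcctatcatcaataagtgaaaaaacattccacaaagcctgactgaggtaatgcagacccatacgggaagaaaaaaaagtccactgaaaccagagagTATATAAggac
Mup21, chr4:62150842-62151091, minus strand: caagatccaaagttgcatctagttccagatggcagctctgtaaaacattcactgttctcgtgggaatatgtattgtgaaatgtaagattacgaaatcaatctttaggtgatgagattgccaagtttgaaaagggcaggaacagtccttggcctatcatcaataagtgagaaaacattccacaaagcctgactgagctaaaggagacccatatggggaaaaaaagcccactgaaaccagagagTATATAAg
The TATATAA sequence, searched on both strands, was in 11 of 14 Mup promoters (78.6%), in 1 of 22 promoters of the other genes and in 3.04% of all 32851 mouse promoters of this length. Many Mup windows are near copies of one another, with 98.8% identity between Mup15 and Mup17, so they are no independent counts. The 22 other promoters belong to 13 genes. Of the Mup windows without a match, those of Mup7 and Mup14 ended before the stretch that holds it in the other Mup windows, and that of Mup11 ended within it. In alignment, 93.2% of the Mup10 window was identical to that of Mup19, against 68.8% for Mup3 and 66.0% for Mup21, whereas Mup3 and Mup21 were 91.2% identical to each other. Annotated starts differed between these genes, which shifts the windows against each other and can lower these identities. Of the 14 Mup windows, that of Mup7 was least identical to that of Mup19 (45.2%), and it is shifted as well. Mup7 fell to 0.0552% of its control mean in the TAA group, and its recovery mice stayed below the control mice. Mup20 had no promoter entry. The 4 genes were chosen by their expression, and whether promoter identity goes with expression was not tested.

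TTCNNNGAA, the palindromic core to which STAT5 binds, reads the same on both strands. It was in 0 of 14 Mup promoters, in 6 of 22 promoters of the other genes (27.3%) and in 7.02% of all promoters. These 8 matches are shown in capitals with 10 bases on each side, because STAT5 is the factor through which growth hormone reaches its target genes.
Prlr, chr15:10223786-10223814, plus strand: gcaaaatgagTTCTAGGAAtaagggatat
Bcl6, chr16:23988952-23988980, minus strand: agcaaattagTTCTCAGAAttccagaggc
Bcl6, chr16:23981433-23981461, minus strand: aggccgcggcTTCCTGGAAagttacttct
Bcl6, chr16:23981387-23981415, minus strand: ggcaggagtgTTCTGTGAAatccttagag
Bcl6, chr16:23981353-23981381, minus strand: atcgactacgTTCCGGGAAtgagagggct
Igfals, chr17:24877598-24877626, plus strand: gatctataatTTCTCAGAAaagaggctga
Igfals, chr17:24878163-24878191, plus strand: ctgccaggtgTTCCTAGAAgaggccctgg
Moxd1, chr10:24223357-24223385, plus strand: tctccgcctcTTCCAGGAAgctccttgcc
A match is a string of letters and not a measured binding site, and the windows end 250 bases before the start.

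Values are FPKM (fragments per kilobase of transcript per M mapped fragments, where M is mega) divided by a median-of-ratios factor for each library, called scaled FPKM below. These values are per length, which puts genes of different length on 1 scale. Between near-identical Mup genes the comparison stays limited by how shared reads were counted. A gene was tested when its mean FPKM was at least 0.1, and it was called a differentially expressed gene (DEG) at FDR < 0.05 over all 14094 tested genes with a fold change of at least 2. Fold changes were computed on log2(scaled FPKM + 0.1) and are given with their standard error (SE). Estimated depth was 26.8 to 40.6 M fragments per library, at which 3 fragments on a transcript of 927 bases, the length of the Mup19 transcript, amount to 0.0797 to 0.121 FPKM. Counts of DEGs depended on the scaling. Of all DEGs between TAA-fibrotic and control mice, 67.9% were higher, against 91.2% with FPKM as deposited and 53.1% with quantile normalization. Between recovery and TAA-fibrotic mice the share was 33.2%, 9.89% and 46.5%, and against the control group 58.6%, 69.3% and 55.2%. Scaling lowered TAA values relative to control values by 0.64 (log2) in every gene.

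Markers of several cell types were checked in the bulk RNA. All 8 hepatocyte markers were detected in each group, and their summed level was 42625 to 46266 in control mice, 25628 to 33054 in TAA-fibrotic mice and 52066 to 54015 in recovery mice. Of these 8, 4 were lower in the TAA group at the DEG criteria and none was higher. Among all tested genes 8.02% were lower and 17.0% higher in this comparison, which also stands beside the counts of the other cell types. Lists of 4 markers are too short to set against these shares. Cholangiocyte markers (6 of 6 higher in the TAA group) summed to 15.7 to 20.97, 295 to 443 and 27.9 to 38.4, and markers of stellate cells and myofibroblasts (6 of 7 higher) to 56.5 to 98.2, 244 to 333 and 84.7 to 118. Macrophage markers (3 of 6 higher) summed to 82.3 to 108, 161 to 224 and 113 to 165. For endothelial cells the sums were 27.2 to 45.9, 27.1 to 37.5 and 43.5 to 47.9 (0 of 4 changed), and for lymphocytes 0.878 to 1.49, 1.96 to 2.67 and 0.599 to 1.65 (1 of 4 higher). Skeletal muscle markers summed to at most 0.426 in control and 0.244 in recovery mice and reached 32.0 in TAA-fibrotic mouse 3, in which Acta1 stood at 19.8. Of the markers of salivary and lacrimal tissue, other known sources of Mup RNA, Bpifa2 and Prol1 were at 0 in all 9 libraries. Amy1 of the same list, an amylase gene that the liver also expresses, was at 138 to 174 in control, 36.4 to 53.8 in TAA-fibrotic and 140 to 160.3 in recovery mice, a DEG from control to TAA-fibrotic mice (-1.78) and from these to recovery mice (1.75). Fewer hepatocytes and less RNA of a gene per hepatocyte cannot be told apart in bulk RNA, and the part of cell composition in the values below was not tested.

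MUP RNA was abundant in control liver, was reduced to a small remainder in TAA-fibrotic mice and was partly restored in recovery mice. Summed scaled FPKM over the 22 Mup genes was 40784, 49604 and 51792 in the 3 control mice, 2648, 1918 and 2273 in the TAA-fibrotic mice and 28575, 22469 and 31005 in the recovery mice. The groups did not overlap, and every recovery mouse lay between the TAA-fibrotic and the control mice. The mean was 47394 ± 5827 (SD, n = 3) in the control group, and the TAA group held 4.81% and the recovery group 57.7% of it. As a share of all FPKM in the library, Mup genes took 9.35% to 11.8% in control mice, 0.768% to 1.01% in TAA-fibrotic mice and 5.28% to 7.28% in recovery mice. Relative to Alb (albumin, the main hepatocyte product) in the same library, the summed level was 1.46 to 1.94, 0.0925 to 0.131 and 0.644 to 0.846. Alb itself stood at 72.2% of its control mean in the TAA group and at 124% in the recovery group.

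**Figure D1:**
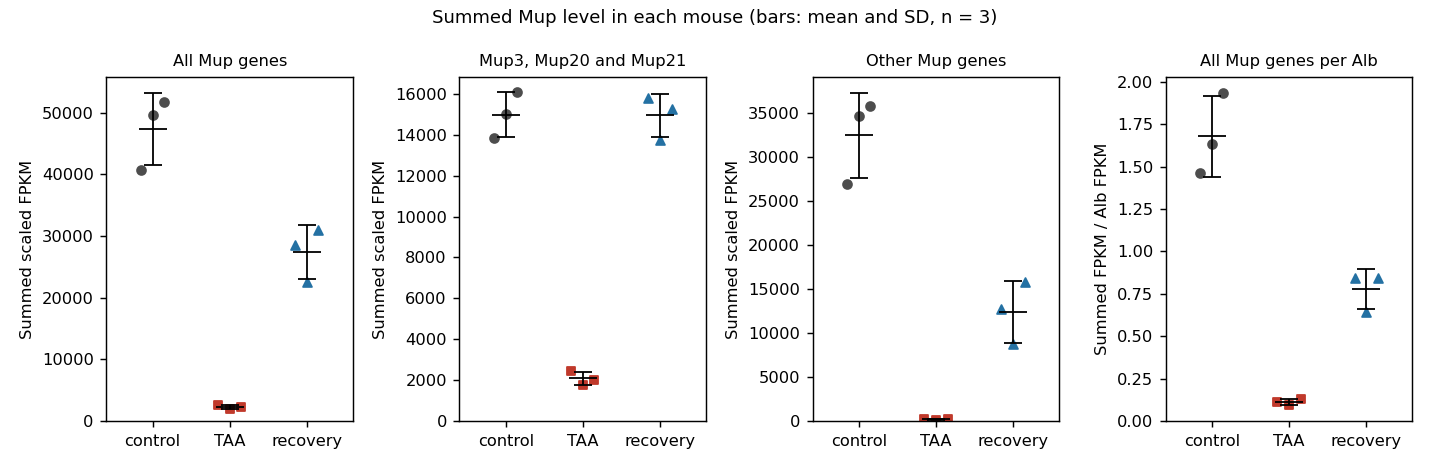
Summed scaled FPKM of all Mup genes, of Mup3, Mup20 and Mup21, and of the other Mup genes, and the sum of all Mup genes divided by Alb, with 1 point per mouse and bars for the mean and SD (n = 3). The 3 recovery mice lie at 22469 to 31005 for all Mup genes and at 13755 to 15817 for Mup3, Mup20 and Mup21, the latter close to the control mice at 13852 to 16084.

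All 20 tested Mup genes fell in TAA-fibrotic mice compared with the control group, and in each of them all 3 TAA-fibrotic mice lay below all 3 control mice. Among all tested genes 8.02% were DEGs with lower expression in this comparison, and 31.0% had all TAA-fibrotic mice below all control mice. All 20 then rose in recovery mice relative to TAA-fibrotic mice, where 7.12% of all tested genes did, and in each all 3 recovery mice lay above all 3 TAA-fibrotic mice, as in 29.4% of all tested genes. Mup4 and Mup5, which are known mainly from glands outside the liver, were at 0 in all 9 libraries. Median log2 fold changes of the 20 genes were -8.69 and 7.31 in these comparisons, against 0.02 and -0.01 over all tested genes. Both comparisons share the TAA-fibrotic mice. In the TAA group 18 of the 20 genes were under 5% of their control mean, 11 under 1% and 8 under 0.1%. In 5 genes at least 1 TAA-fibrotic mouse was at 0, and for genes near 0 the size of the fold change is set by the 0.1 added to each value. The added 0.1 also narrows the spread of values near 0, so a small SE there is no measure of variation between mice.

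**Figure D2:**
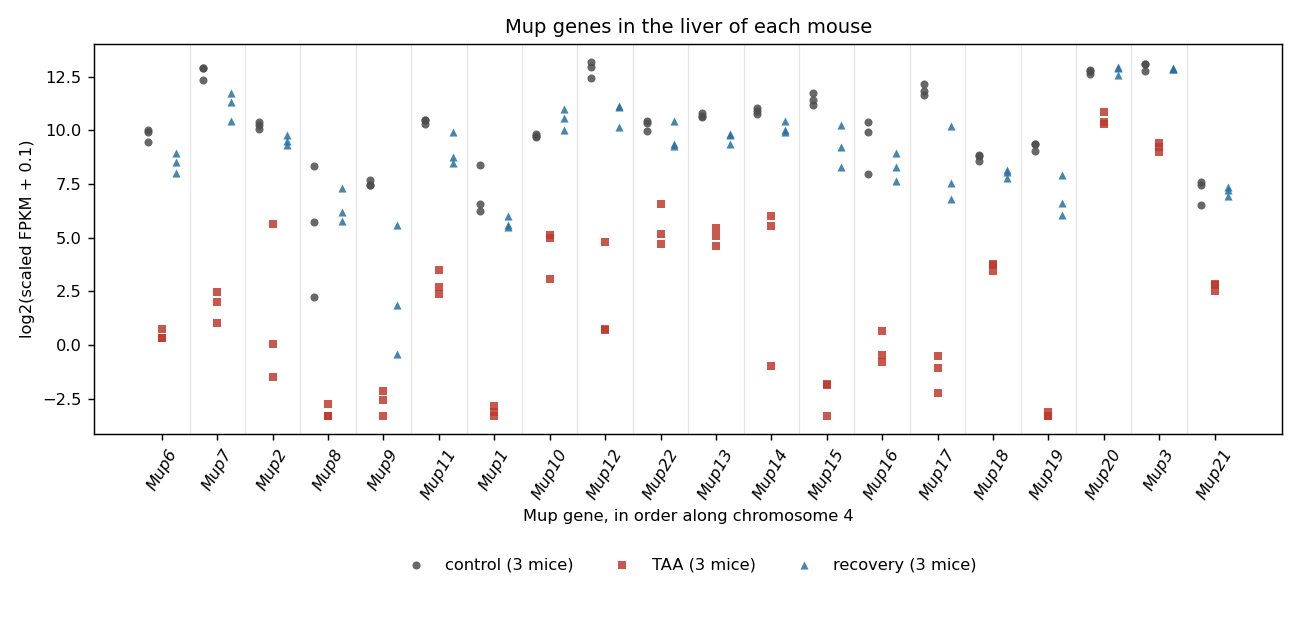
Log2(scaled FPKM + 0.1) of the 20 tested Mup genes in each of the 9 mice, with genes in their order along the chromosome and 3 points per group. TAA-fibrotic mice lie below control and recovery mice in every gene, and Mup20 and Mup3, in the TAA group at means of 1480.2 and 591, lie far above the other Mup genes there.

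Mup15, Mup17 and Mup19 had the largest fitted falls, all with TAA values under 1 and some of these below the level of 3 fragments, so no order between them is given. Mup19 scaled FPKM was 527, 646 and 659 in control mice, 0, 0 and 0.0131 in TAA-fibrotic mice and 97.3, 67.1 and 240.0 in recovery mice. The log2 fold change was -12.51 (SE 0.12) from control to TAA-fibrotic mice and 10.12 (SE 0.41) from TAA-fibrotic to recovery mice. Only 0.90% of its windows were free of paralogs, so that its reads are among those hardest to place. Mup15 was at 2306, 3442 and 2753 in control mice, at 0.183, 0.171 and 0 in TAA-fibrotic mice and at 599, 315 and 1193 in recovery mice. Mup17, for which 59.6% of windows were found in no other gene, was at 3171, 4585 and 3575 in control mice, at 0.108, 0.593 and 0.377 in TAA-fibrotic mice and at 185, 110.2 and 1189 in recovery mice. Their log2 fold changes from control to TAA-fibrotic mice were -13.79 and -13.15. In both genes recovery mouse 3 stood well above the other two recovery mice and still below every control mouse. Mup9 had the widest gap after recovery, with 204, 177 and 172 in control mice, 0, 0.128 and 0.0694 in TAA-fibrotic mice and 0.647, 3.51 and 48.0 in recovery mice. Its recovery mean was 9.42% of the control mean, and most of that mean came from recovery mouse 3. Its rise from TAA-fibrotic to recovery mice no longer met the DEG criteria with 1 added to each value (2.74).

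Mup7 and Mup12 were the most abundant of the genes whose 3 recovery mice all lay below the control mice. Mup7 was at 5100.2, 7607 and 7568 in control mice, at 3.91, 1.95 and 5.33 in TAA-fibrotic mice and at 2536, 1383 and 3370.4 in recovery mice. Mup12 was at 5542, 7819 and 9342, then at 27.9, 1.496 and 1.59, and then at 2196, 1144 and 2223. Together these 2 genes made up 29.9% ± 3.43 (SD, n = 3) of the summed Mup level in control mice, 0.562% ± 0.558 in TAA-fibrotic mice and 15.3% ± 3.57 in recovery mice. Mup6, whose transcript shares no 150-base window with another gene, was at 708, 957 and 1029 in control mice, at 1.17, 1.16 and 1.55 in TAA-fibrotic mice and at 369, 258 and 494 in recovery mice. It showed the same order of groups with no overlap, although its locus lies over that of Mup7 on the opposite strand.

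Mup20, Mup3 and Mup21 kept 21.9%, 7.33% and 4.28% of their control mean in TAA-fibrotic mice. No other tested Mup gene kept more than the 4.23% of Mup22, which is close to Mup21. In Mup20, Mup3 and Mup21 recovery mice overlapped control mice, as they also did in Mup8, Mup16 and Mup22. The grouping of Mup20, Mup3 and Mup21 was chosen after the values were seen. Mup20 encodes darcin, a protein that makes male urine attractive to females. It was at 6922, 6254 and 7141 in control mice, at 1833, 1265 and 1343 in TAA-fibrotic mice and at 7987, 6173 and 7724 in recovery mice. The log2 fold change was -2.21 (SE 0.19) in the TAA group, 2.31 (SE 0.20) in recovery mice relative to the TAA group, and 0.10 (SE 0.20) relative to the control group. With quantile normalization both the fall and the rise of Mup20 were smaller than 2-fold, at -0.62 and 0.96. Mup3 was at 6839, 8575 and 8769 in control mice, at 600.4, 499 and 674 in TAA-fibrotic mice and at 7668, 7459 and 7396 in recovery mice. Mup21 was at 90.6, 192 and 174, at 7.06, 5.67 and 6.86, and at 161, 123 and 147. All 3 recovery mice were within the range of the control mice in Mup3 and Mup21, whereas in Mup20 they were spread to both sides of that range.

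The sum of Mup3, Mup20 and Mup21, nearly all of it from Mup3 and Mup20, stood at 13.9% of its control mean in the TAA group and at 99.7% in the recovery group. For the sum of the other Mup genes these values were 0.622% and 38.3%, with 26933, 34583 and 35708 in control mice, 207, 149 and 249 in TAA-fibrotic mice and 12758, 8714 and 15738 in recovery mice. The make-up of the counted MUP RNA changed with it, and shared reads, if dropped or counted more than once, would alter these shares. Mup20 alone made up 14.5% ± 2.26 (SD, n = 3) of the summed Mup level in control mice, 64.8% ± 5.19 in TAA-fibrotic mice and 26.8% ± 1.63 in recovery mice. Mup3 and Mup20 together made up 31.5% ± 2.03, 90.9% ± 1.84 and 54.7% ± 5.95. The 3 groups of mice did not overlap in either share.

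Between these extremes, Mup10, Mup13, Mup14, Mup18 and Mup22 kept 1.94% to 4.23% of their control mean in the TAA group. Mup18 varied least of these 5 within the TAA and recovery groups, though not within the control group, with 378, 451 and 458 in control mice, 13.04, 10.8 and 13.3 in TAA-fibrotic mice and 268, 220.0 and 282 in recovery mice. Mup13 was at 1543, 1759 and 1625, at 34.0, 23.9 and 43.9, and at 905, 649 and 870.2. Mup2 and Mup14 varied strongly within the TAA group. Mup14 was at 46.9, 0.412 and 63.5 and Mup2 at 0.255, 0.927 and 50.1 in TAA-fibrotic mice 1, 2 and 3, and the log2 fold change of Mup14 was -5.12 without mouse 2 and -8.60 without mouse 3. For Mup2 it was -10.95 without mouse 3 and -7.38 without mouse 1. Mup14 and Mup2 transcripts were 99.6% identical. Mup8 and Mup16 varied within the control group, Mup8 at 4.59, 52.8 and 324 and Mup16 at 973, 248 and 1351, and Mup1 stood at 336 in control mouse 2 against 93.5 and 74.5 in the others. The median coefficient of variation of the 20 genes was 14.4% in control mice, 64.8% in TAA-fibrotic mice and 32.6% in recovery mice.

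After recovery most Mup genes stood below the control mice, and levels were uneven between genes. Recovery mice were 8 weeks older than control mice, so age and an incomplete return cannot be told apart here. Against the control group, Mup12, Mup13 and Mup19 were DEGs with lower expression in the recovery group and no Mup gene was higher, where 0.412% and 0.582% of all tested genes were lower and higher. In 13 of the 20 genes all 3 recovery mice lay below all 3 control mice, and in 1 gene, Mup10, above them, against 15.6% and 14.6% of all tested genes. The median recovery level was 46.0% of the control mean, 11 genes were under 50% and 4 above 80%. Mup10 was at 811, 861 and 909 in control mice, at 31.6, 8.40 and 35.2 in TAA-fibrotic mice and at 2007, 1513 and 1034 in recovery mice, 176% of the control mean, with a log2 fold change of 0.77 (SE 0.24) that did not reach 2-fold. The locus of Mup11, which spans Mup10, was at 1417, 1231 and 1438, at 10.99, 4.99 and 6.39, and at 433, 353 and 961. These 3 calls against the control group did not hold with fewer mice. All 3 were lost when any control mouse, recovery mouse 1 or recovery mouse 2 was left out, and without recovery mouse 3 the DEGs among Mup genes were Mup9, Mup11, Mup17 and Mup19.

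**Figure D3:**
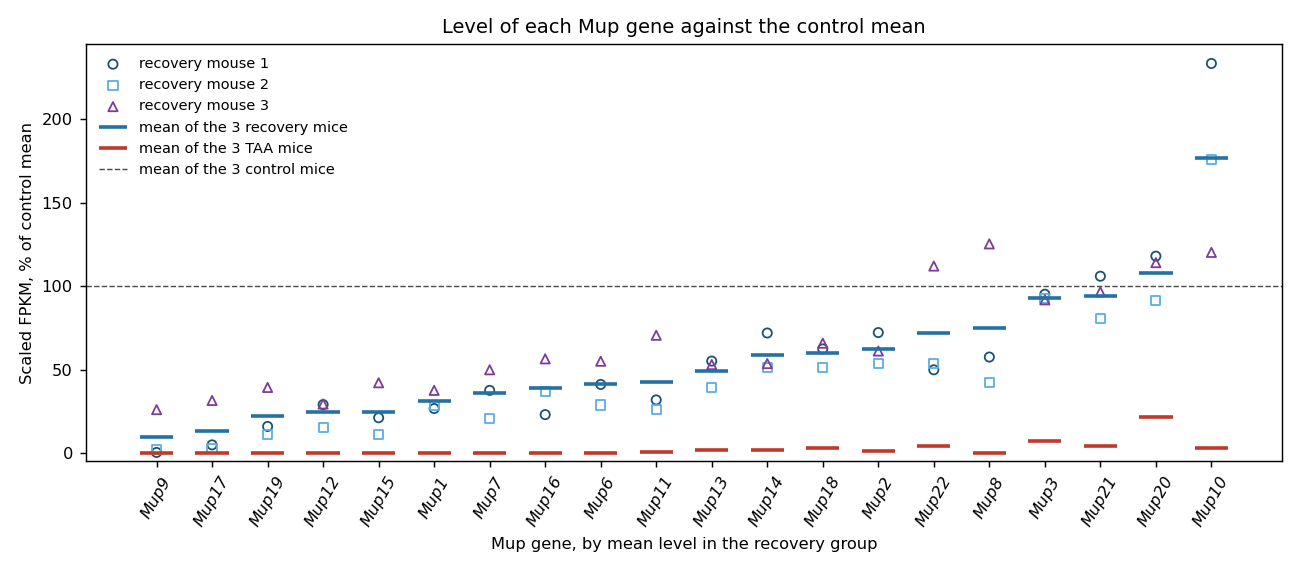
Scaled FPKM of each tested Mup gene as a percent of its control mean, with 1 symbol per recovery mouse and bars for the recovery and TAA means (n = 3 each). The recovery means run from 9.42% for Mup9 to 176% for Mup10, and recovery mouse 2 is the lowest in 14 of the 20 genes.

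Mice of the recovery group kept their order across many Mup genes. Recovery mouse 2 was the lowest of the 3 in 14 of 20 genes and recovery mouse 3 the highest in 13. In the control group, mouse 1 was the lowest in 14. These genes share libraries and partly reads, so they are no independent counts of a mouse. The order of the mice over all tested genes was not examined. The level of Mup genes over the median of its group was 81.8% in recovery mouse 2 and 132% in recovery mouse 3, as the median over genes.

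Ghr and Prlr encode the receptors for growth hormone and prolactin, and the growth hormone receptor fell in TAA-fibrotic mice. Ghr was at 151, 136 and 119 in control mice, at 51.5, 49.1 and 44.9 in TAA-fibrotic mice and at 103, 97.5 and 98.4 in recovery mice. All 3 recovery mice lay between the TAA-fibrotic and the control mice, with no overlap. The log2 fold change was -1.47 (SE 0.11) from control to TAA-fibrotic mice, 1.04 (SE 0.09) from TAA-fibrotic to recovery mice and -0.43 (SE 0.10) from control to recovery mice. Of these, the first 2 met the DEG criteria, but neither reached 2-fold with FPKM as deposited (-0.84 and 0.48) or with quantile normalization (-0.83 and 0.50), and the second was 0.99 without TAA-fibrotic mouse 3. Prlr was at 25.3, 19.0 and 18.9, at 10.8, 11.1 and 10.54, and at 15.3, 12.5 and 15.5. Its log2 fold change of -0.94 (SE 0.13) in the TAA group was short of 2-fold, and it reached 2-fold without control mouse 2 (-1.01) or control mouse 3 (-1.01). The value of 0.40 from TAA-fibrotic to recovery mice changed sign with FPKM as deposited, to -0.15.

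For the kinase and the STAT5 genes, the log2 differences between the groups were at most 0.59. Jak2, the kinase bound to the receptor, was at 5.64, 6.42 and 6.26 in control mice, at 7.41, 8.49 and 7.15 in TAA-fibrotic mice and at 5.76, 6.06 and 5.95 in recovery mice. TAA-fibrotic mice lay above the others with a log2 difference of 0.32 (SE 0.11), and recovery mice overlapped control mice. Stat5b, the main STAT5 gene of the male liver, was at 11.9, 10.9 and 10.4, at 8.70, 7.82 and 8.90, and at 14.6, 12.4 and 11.6. Its difference of -0.38 (SE 0.10) in the TAA group changed sign with FPKM as deposited, to 0.25. Stat5a, its close relative, was at 3.24, 2.89 and 2.79, at 4.17, 3.63 and 4.58, and at 4.38, 3.85 and 4.57, so that both TAA-fibrotic and recovery mice lay above control mice. None of the 3 genes was a DEG in any comparison, although with FPKM as deposited Stat5a reached 1.08 in the TAA group.

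Socs2 and Cish encode feedback inhibitors of the receptor complex, and TAA-fibrotic mice lay below control mice in the first and above them in the second. Socs2 was at 7.94, 11.2 and 8.85 in control mice, at 5.44, 4.37 and 5.02 in TAA-fibrotic mice and at 9.01, 4.13 and 6.47 in recovery mice. TAA-fibrotic mice lay below control mice with a log2 difference of -0.89 (SE 0.15), which reached 2-fold (-1.002) without control mouse 1, and recovery mice spread over both groups. Cish, itself a target of STAT5, was at 1.99, 2.96 and 1.75, at 3.15, 4.46 and 2.996, and at 2.31, 1.71 and 1.80. TAA-fibrotic mice lay above both other groups, with differences of 0.65 (SE 0.23) from the control group and -0.82 (SE 0.19) from TAA-fibrotic to recovery mice. Neither gene was a DEG in any comparison with all mice. With FPKM as deposited, where all TAA values are higher, Cish reached 2-fold in both comparisons (1.27 and -1.37), and the recovery difference of Socs2 changed sign from 0.33 to -0.22.

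Bcl6 and Cux2 encode repressors that are enriched in male and in female liver, respectively. Bcl6 was at 9.91, 1.81 and 11.2 in control mice, at 2.04, 2.70 and 2.39 in TAA-fibrotic mice and at 7.25, 9.48 and 8.34 in recovery mice. Control mouse 2 was below all TAA-fibrotic mice, and the other control mice were near the recovery mice. Bcl6 rose from TAA-fibrotic to recovery mice (log2 fold change 1.77, SE 0.15), and its difference of -1.29 (SE 0.62) between the TAA and control groups was no DEG. Without control mouse 2 that difference was -2.11 and met the criteria. Cux2 was low in every mouse, at 0.289, 0.258 and 0.702 in control mice, at 0.196, 0.155 and 0.166 in TAA-fibrotic mice and at 0.103, 0.0942 and 0.198 in recovery mice. It was no DEG in any comparison, though it met the criteria in the TAA group without control mouse 2 (-1.04) and with quantile normalization (-1.73).

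Igf1 and Igfals encode the growth factor that the liver releases under growth hormone and the acid-labile subunit that holds it in the circulation. Igf1 was at 171, 159 and 147 in control mice, at 67.1, 59.99 and 52.6 in TAA-fibrotic mice and at 147, 151 and 167 in recovery mice. It fell to 37.7% of the control mean (log2 fold change -1.41, SE 0.11) and rose again in the recovery group (1.37, SE 0.11), where the mice overlapped control mice and the difference was -0.04 (SE 0.09). As for Ghr, both changes were short of 2-fold with FPKM as deposited (-0.77 and 0.81) and with quantile normalization (-0.72 and 0.77). Igfals was at 12.4, 32.1 and 13.1, at 5.82, 6.82 and 4.13, and at 9.08, 7.68 and 10.3. It fell in the TAA group (-1.65, SE 0.37), and all 3 recovery mice remained below all control mice with a difference of -0.95 (SE 0.36) that was no DEG. Control mouse 2 held the high end of Igfals, and without that mouse the fall was -1.20.

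**Figure D4:**
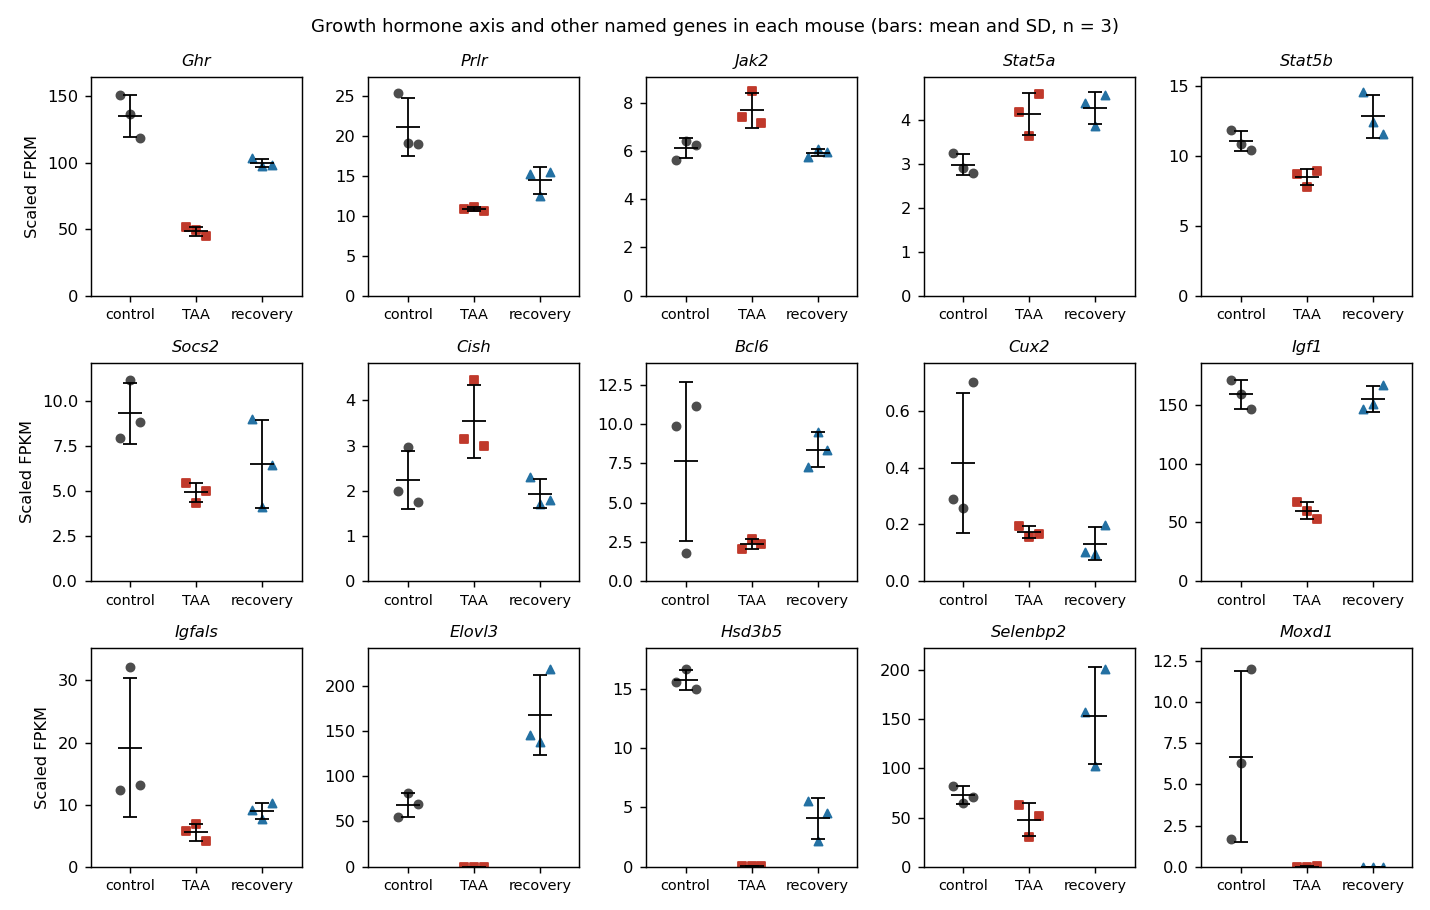
Scaled FPKM of the 15 genes other than Mup genes in each mouse on linear axes that start at 0, with bars for the mean and SD (n = 3). Elovl3 is at 138 to 219 in the recovery mice, above the control mice at 55.3 to 81.7, and Hsd3b5 is at 2.16 to 5.53, below the control mice at 15 to 16.7.

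Among the enzymes, Elovl3, Hsd3b5 and Moxd1 fell furthest of the genes other than Mup genes in TAA-fibrotic mice, whereas Selenbp2 was no DEG there, and levels after recovery differed from gene to gene. Elovl3, which lengthens very long chain fatty acids, was at 55.3, 81.7 and 68.9 in control mice, at 0.0924, 0.0986 and 0.104 in TAA-fibrotic mice and at 145, 138 and 219 in recovery mice. It fell to 0.143% of the control mean and then rose to 244% of it, and all 3 log2 fold changes (-8.42, SE 0.16; 9.69, SE 0.18; 1.27, SE 0.21) met the criteria. Hsd3b5, a steroid-metabolizing enzyme of the male liver, was at 15.5, 16.7 and 15, at 0.0750, 0.0379 and 0.0940, and at 5.53, 2.16 and 4.51. It fell (-6.56, SE 0.17) and rose again (4.54, SE 0.34) but stayed at 25.8% of the control mean (-2.03, SE 0.32). Elovl3 and Hsd3b5 thus stood on opposite sides of the control mice after recovery, with no overlap in either gene.

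Selenbp2, a selenium-binding protein of the male liver, was at 82.3, 64.5 and 71.2 in control mice, at 62.7, 29.98 and 51.2 in TAA-fibrotic mice and at 157, 103 and 201 in recovery mice. It was no DEG in the TAA group (-0.66, SE 0.25), rose in recovery mice relative to the TAA group (1.69, SE 0.31), and stood at 211% of the control mean there (1.03, SE 0.24), which was no DEG. Moxd1, a monooxygenase related to dopamine beta-hydroxylase, was at 1.71, 6.32 and 12.04 in control mice, at 0, 0.00319 and 0.0242 in TAA-fibrotic mice and at 0.0104, 0.0179 and 0 in recovery mice. It fell in the TAA group (-5.58, SE 0.62) and remained near 0 after recovery (-5.57, SE 0.65 against the control group). Its values in TAA-fibrotic and recovery mice overlapped. Recovery mouse 2 was the lowest recovery mouse in Hsd3b5, Selenbp2, Elovl3 and Socs2, and also in Ghr, Prlr, Stat5a, Cish, Cux2 and Igfals. It was the highest of them in Jak2, Bcl6 and Moxd1.

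Over the whole set, 35 of the 37 genes passed the filter on low values, and 26 of them were DEGs with lower expression in the TAA group, none with higher. In the recovery group 26 were higher than in the TAA group and none was lower. Against the control group, Elovl3 was higher and Mup12, Mup13, Mup19, Hsd3b5 and Moxd1 were lower. In either direction, 25.0%, 21.4% and 0.993% of all tested genes were DEGs in the 3 comparisons. Because these comparisons entered the choice of genes, nothing is read from the difference. The 6 differences from the control group were not stable. With 1 mouse left out in turn, 0 to 4 of the 35 genes were DEGs.

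Other genes with known sex bias in mouse liver, taken from textbook knowledge with earlier results of these data known, were set beside the members. Of 12 male-biased genes, 11 fell in TAA-fibrotic mice and none rose (all tested genes: 8.02% lower, 17.0% higher). From TAA-fibrotic to recovery mice 10 rose again, where 7.12% of all tested genes rose. None was a DEG against the control group, where only 0.993% of all tested genes were DEGs, so nothing is read from that count. Slco1a1 had a limma adjusted p of 0.0239 against the control group, at a log2 difference of -0.67. Slco1a1, an uptake transporter for organic anions, was at 138, 115 and 128 in control mice, at 0.996, 0.671 and 0.720 in TAA-fibrotic mice and at 85.4, 75.3 and 79.4 in recovery mice (-7.17, SE 0.15, limma adjusted p = 5.4e-07 in the TAA group). Cyp4a12a and Cyp4a12b, which hydroxylate fatty acids, changed by -4.81 (SE 0.29) and -4.95 (SE 0.18) on the log2 scale, and Serpina1e, an alpha-1-antitrypsin paralog, by -4.69 (SE 0.57). The recovery levels of these last 3 genes overlapped the control mice. Ugt2b38 was the exception in the TAA group, with a log2 difference of -0.98 (SE 0.13, limma adjusted p = 0.000498).

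Of 24 female-biased genes, 22 were tested, and 13 rose and 5 fell in TAA-fibrotic mice (all tested genes: 17.0% higher, 8.02% lower). With FPKM as deposited these numbers were 14 and 4, and with quantile normalization 9 and 5. Cyp2a4, a testosterone hydroxylase, was at 1.83, 1.77 and 1.04 in control mice, at 144, 183 and 144 in TAA-fibrotic mice and at 1.89, 1.17 and 1.83 in recovery mice (log2 fold change 6.61, SE 0.21, limma adjusted p = 1.99e-06 in the TAA group). Cyp3a16 was listed at 0 in all control and recovery mice and at 6.74, 10.2 and 5.27 in TAA-fibrotic mice. Cyp3a41a and Cyp3a41b, close paralogs of the same family, stood at 12.1 to 14.9 and at 10.4 to 13.7 in TAA-fibrotic mice and under 0.1 in every other mouse. The 5 that fell were Cyp4a10, Cyp4a14, Cyp2c69, Tox and Cyp17a1, named here after their values were seen, of which Cyp4a10 and Cyp4a14 also respond to fatty acids through PPARalpha. From TAA-fibrotic to recovery mice 12 of the 22 fell, of which 11 were among the 13 that had risen, and all 5 that had fallen rose (all tested genes: 14.3% lower, 7.12% higher). Cyp26a1 and Cyp2b10 were the risen genes that did not fall at the DEG criteria, and Slc22a26 fell without having risen. Cyp2b10, an enzyme that xenobiotics induce, was the single DEG of the list between recovery and control mice, at 0.914, 3.08 and 1.21 against 0.233, 0.136 and 0.215 (2.47, SE 0.43, limma adjusted p = 0.0439), and it was no DEG with any 1 of the 6 mice left out.

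**Figure D5:**
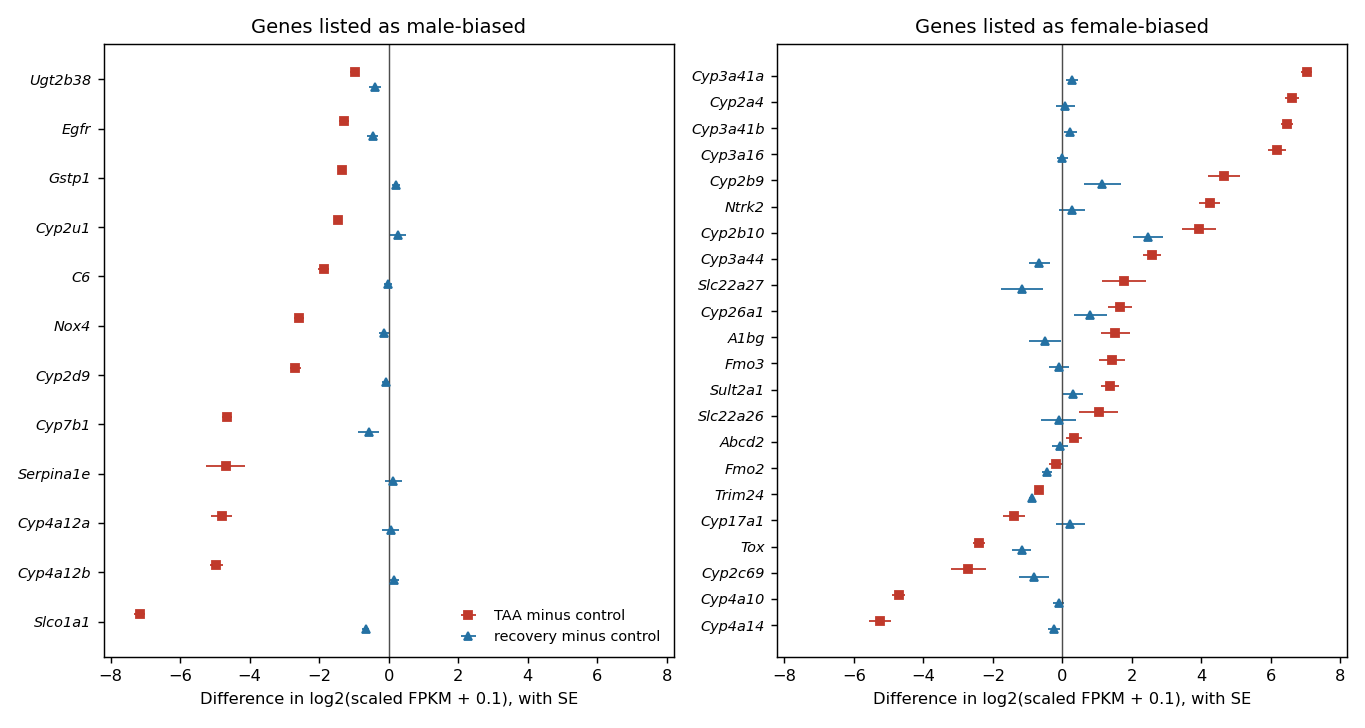
Difference in log2(scaled FPKM + 0.1) between TAA-fibrotic and control mice and between recovery and control mice, with SE, for the tested genes of the male-biased (12) and female-biased (22) lists. The male-biased genes run from -7.17 to -0.98 in the TAA group and from -0.67 to 0.26 in the recovery group.

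Of 16 genes for other SOCS proteins, phosphatases, adaptors, STATs and receptor trafficking, 1 was a DEG in the TAA group, and another 7 passed the FDR without a 2-fold change, where 25.0% of all tested genes were DEGs and 29.5% passed the FDR alone. Irs2, an adaptor shared with insulin signalling, was at 14.5, 12.6 and 9.85 in control mice, at 4.47, 4.90 and 5.45 in TAA-fibrotic mice and at 12.4, 11.4 and 14.97 in recovery mice (-1.29, SE 0.16, limma adjusted p = 0.000378, and 1.36, SE 0.13, in the recovery group). Both changes of Irs2 were short of 2-fold with FPKM as deposited (-0.66 and 0.81). Most of 9 transcription factors that act with STAT5 in hepatocytes were no DEG in the TAA group, where 25.0% of all tested genes were DEGs. Nothing is read from that count. Cebpa and Hnf4a of this list fell there, and Hnf4a rose again in recovery mice. Cebpa was at 204, 195 and 190, at 74.1, 58.7 and 80.6, and at 165, 121 and 134 (-1.48, SE 0.13), and its rise of 0.98 (SE 0.16) was short of 2-fold. Hnf4a, a central regulator of hepatocyte genes, was at 223, 232 and 189, at 105, 101 and 90.2, and at 258, 185 and 186 (-1.11, SE 0.11, and 1.07, SE 0.15). Cebpa and Hnf4a fell by less than 2-fold with FPKM as deposited (-0.84 and -0.48) and with quantile normalization (-0.76 and -0.31). The rise of Hnf4a was also short of 2-fold with these scalings (0.51 and 0.36) and without recovery mouse 1 (0.91).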

How the data were processed

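Liver mRNA of 9 mice (3 control, 3 TAA, 3 recovery) was analysed from 1 table of genes, with every sample column mapped to 1 mouse by its label. The authors sequenced libraries as paired-end reads, mapped them to mm10 (GRCm38) with HISAT2 (2.2.1), counted them on genes with featureCounts (1.5.0-p3) and deposited FPKM, with no further scaling between libraries. Treatment of reads shared by paralogs and the strand setting are not given in the sources used here.

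A median-of-ratios factor per library was taken over the 14005 genes above 0 in all libraries (0.827 to 0.878 in control, 1.29 to 1.38 in TAA and 0.893 to 0.907 in recovery mice) and each FPKM divided by it. The 14094 genes averaging 0.1 FPKM or more were tested in R 4.3.3 by limma 3.58.1 (lmFit and trended eBayes) on log2(scaled FPKM + 0.1), using the 6 libraries of each comparison, with Benjamini-Hochberg adjustment over all tested genes. DEGs passed both FDR < 0.05 and a 2-fold change, which are the study's criteria. Library depth was read from the step size of the lowest values. SDs are the spread between mice, and SEs come from the limma fit, in which variances are drawn toward a trend over all genes. Members, gene lists and markers were chosen with earlier results of these data known. Named from each list were up to 4 DEGs with the largest change in each of the first 2 comparisons, and every DEG of the recovery group against the control group. C4a and Lacrt were listed but not matched by symbol. A result of the transcription factor list is not reported here. Alternatives covered the added value, the filter, the scaling, the variance trend, the libraries in a fit, the replicate number as a block and each mouse left out. The fit was tested on simulated data. Loci were compared with GENCODE M21, in which 92.4% of all loci and 31 of the 37 member loci were identical. Promoters came from RefSeq (GRCm38.p6). Python 3.11.15 with pandas 2.3.3 was used.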

Additional observations from a re-analysis of the deposited data

How the results depend on the processing

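The falls in the TAA group and the rises from TAA-fibrotic to recovery mice were stable in number. Over all alternatives the members that were DEGs stayed within 1.5 times of 26 in each, and with 1 mouse left out they ranged from 26 to 29 and from 25 to 26. The differences between recovery and control mice were not stable. Of 6 DEGs among the members there, 0 were left with no filter on low values, 2 without the variance trend and 0 with the replicate block, and 0 to 4 with 1 mouse left out. For female-biased genes in that comparison (1 DEG), the count was 0 with 1 added to each FPKM, with no filter, without the variance trend and with the replicate block, 2 with all 9 libraries in 1 fit, and 0 to 0 with 1 mouse left out. Female-biased DEGs between recovery and TAA-fibrotic mice numbered 17, and 11 with 1 added to each FPKM. For the signalling genes (1 DEG), the count was 2 in the TAA group with FPKM as deposited, neither of them the gene called with scaled FPKM, and 2 between recovery and TAA-fibrotic mice with quantile normalization. The summed Mup level in the recovery group, 57.7% of the control mean, was 46.4% relative to Alb and 53.9% to 62.9% with 1 mouse left out. Mice with the same replicate number did not deviate together, with correlations of their deviations across genes from -0.07 to 0.12, so the number is not taken as a pairing. The replicate block left the members' DEGs at 26 and 26 in the first 2 comparisons. Over all genes, DEGs in the TAA group numbered 3520, and 1780 with 1 added to each FPKM and 2204 with a mean FPKM of at least 1. Between recovery and TAA-fibrotic mice they numbered 3017, 1460 and 1895. Against the control group they numbered 140, and 80 with 1 added, 48 with no filter, 235 with all 9 libraries, 85 without the trend and 17 with the block. For genes listed near 0 in a group, depth and the added value limit the size of a fold change. Causes of these changes were not tested.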

Other observations

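Several genes of the sex-biased lists that the rule for named genes left out are described here, chosen after their values were seen. Cyp7b1, an oxysterol hydroxylase that is higher in male liver, was at 108, 109 and 112 in control mice, at 4.55, 3.31 and 5.16 in TAA-fibrotic mice and at 81.7, 44.3 and 109.5 in recovery mice. It fell in the TAA group (log2 fold change -4.65, SE 0.15, limma adjusted p = 2.19e-06), and recovery mouse 2 was again the lowest of the recovery mice. Nox4, an oxidase that makes hydrogen peroxide, was at 17.8, 15.9 and 22.6, at 3.26, 2.81 and 2.94, and at 19.8, 15.7 and 15.6, with no overlap between TAA-fibrotic and other mice. Among the female-biased genes, Ntrk2, a neurotrophin receptor, was at 5.61, 3.75 and 4.34 in TAA-fibrotic mice and at most 0.277 in any other mouse. Cyp2b9 was at 2.55, 7.52 and 2.83 in TAA-fibrotic mice, and TAA-fibrotic mouse 2 was also the highest in Cyp2b10, at 10.3 against 3.05 and 2.61.

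Trim24, a repressor listed as female-biased, was at 18.1, 16.6 and 16.2 in control mice, at 10.4, 10.8 and 10.6 in TAA-fibrotic mice and at 9.08, 9.55 and 8.78 in recovery mice. Its recovery level lay below the control group in every mouse, with a log2 difference of -0.88 (SE 0.08, limma adjusted p = 0.0097) that was short of 2-fold. Leprot, whose product limits the growth hormone receptor at the cell surface, was at 5.48, 9.34 and 9.38 in control mice, at 15.3, 13.1 and 13.2 in TAA-fibrotic mice and at 7.93, 8.58 and 9.76 in recovery mice. Its difference of 0.81 (SE 0.21, limma adjusted p = 0.013) in the TAA group was short of 2-fold.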
